A study of Mus musculus with 4 samples.

Results

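The core circadian clock genes were followed in the livers of Utx knockout and wild-type mice given acetaminophen. The set held 10 genes, taken by symbol from a table of 54149 genes: Arntl, Clock, Npas2, Per1, Per2, Per3, Cry1, Cry2, Nr1d1 and Nr1d2. Each symbol matched a single row, and 9 of the 10 had the mean of at least 1 FPKM that was required for testing. FPKM, the unit of the table, scales fragments to gene length and library size. The exception was Npas2.

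The mice of the knockout group are labelled as lacking Utx (listed as Kdm6a, a histone H3 demethylase) in the liver, and the controls were wild-type mice matched for age and sex. All mice were adult females of a C57BL/6 x 129S4/SvJae strain background and had fasted for 16 h before an intraperitoneal injection of acetaminophen at 300 mg/kg, so no group was free of the drug or of the fast. Each group held 2 libraries of liver RNA that each joined RNA of 2 mice, so differences between single mice are not seen. Nothing given here names the promoter that drove the deletion, the hour of injection or the hour of collection. The housing room ran on a 12 h light and 12 h dark cycle. Each pool gives a single level per gene, so the phase and amplitude of a rhythm were not measured and cannot be told apart.

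The clock is a transcriptional feedback loop. BMAL1, the product of Arntl, pairs with CLOCK or with its paralog NPAS2 and activates the Per, Cry and Nr1d genes through E-box sequences, and the PER and CRY proteins return to repress that pair. REV-ERB alpha and beta, the products of Nr1d1 and Nr1d2, repress Arntl through ROR elements (ROREs), where the ROR receptors activate it. DBP, TEF and HLF activate, and NFIL3 represses, genes that carry a D-box. In the liver this loop drives daily rhythms in metabolic genes and is reset by feeding and fasting.

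The library totals, recovered as whole reads, were 17804730 and 16330451 in the knockout pools and 16580979 and 16669038 in the wild-type pools. The FPKM imply totals of 1.001 and 1.05 times these in the knockout and 1.02 and 0.943 times in the wild type, and how they were scaled is not stated in what was used here. Kdm6a itself was lower but not absent, at 2.20 and 2.12 FPKM in knockout pools against 3.40 and 3.85 FPKM in wild-type pools, and did not pass (log2 fold change -0.63, SE 0.13, limma adjusted p = 0.0715). It passed limma voom, the count test on recovered reads (adjusted p = 0.0331, where 8.97% of all genes passed). With only protein-coding genes tested it passed limma (adjusted p = 0.0441, where 9.98% of genes did). An FPKM value covers the whole gene and says nothing of a single exon. The summed level of 10 hepatocyte markers was 44670 and 33188 FPKM in knockout pools and 37539 and 45819 FPKM in wild-type pools. Alb made up most of this sum, at 29570 and 21955 FPKM in knockout pools and 24995 and 29597 FPKM in wild-type pools. Of the 10 markers 2 lay higher and 2 lower without overlap, where 31.6% and 29.9% of all genes tested did. None of the 10 passed limma or limma voom, and 0 had an unadjusted limma p under 0.05, where 27.1% of all genes did. Over all 11900 genes tested, limma called 190 higher and 374 lower in the knockout at an adjusted p under 0.05, or 211 and 255 when each library was rescaled to its own listed reads.

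Promoter sequences are shown for the members that carry a clock motif near their start, because the loop acts through these letters. RefSeq on GRCm38.p6 listed 13 windows of 300 bases, reaching 250 bases before and 50 after a transcript start, for 9 members (all but Per2). Each was searched on both strands for the E-box CACGTG, the variant E'-box CACGTT, the D-box as TTATGTAA or TTATGCAA, the core of the RORE as TAGGTCA or TGGGTCA, and the cAMP response element (CRE) TGACGTCA. Of all 32851 windows of this length in the table, 7.15% held the E-box, 4.68% the E'-box, 1.66% the D-box, 6.45% the RORE core and 1.79% the CRE. Capitals mark the motif letters, and an E'-box on the other strand reads AACGTG. All are written 5′ to 3′ on the strand of the gene.
Per3, chr4:151044786-151044885, minus strand, with a pair of D-boxes: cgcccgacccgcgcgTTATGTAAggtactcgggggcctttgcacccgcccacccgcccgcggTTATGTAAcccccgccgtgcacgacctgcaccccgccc
Per1, chr11:69098769-69098938, plus strand, with an E-box and a D-box: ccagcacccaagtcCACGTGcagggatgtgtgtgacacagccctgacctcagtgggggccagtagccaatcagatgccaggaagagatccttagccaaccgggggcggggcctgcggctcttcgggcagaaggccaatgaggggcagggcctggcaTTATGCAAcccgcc
Cry1, chr10:85185095-85185154, minus strand, with an E'-box and an E-box: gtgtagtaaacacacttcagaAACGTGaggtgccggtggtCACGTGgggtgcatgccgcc
Cry2, chr2:92434220-92434249, minus strand, with an E'-box: ccacacatggtgggAACGTGagggggcgga
Nr1d1, chr11:98775393-98775422, minus strand, with an E'-box: gcaggcgcacagatctcAACGTGccggctg
Arntl, chr7:113207528-113207557, plus strand, with a RORE core just after a transcript start: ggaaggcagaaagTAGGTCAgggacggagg

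In Per3 the D-boxes began at positions -205 and -158 from the start, and in Per1 the D-box began at -24 and the E-box at -166. The Arntl motif began at base 31 after the downstream of 2 annotated starts. No motif searched for was found in the windows of Clock, Npas2 and Nr1d2, and no member window held the CRE. A match is a run of letters and not a measured binding site.

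**Figure D1:**
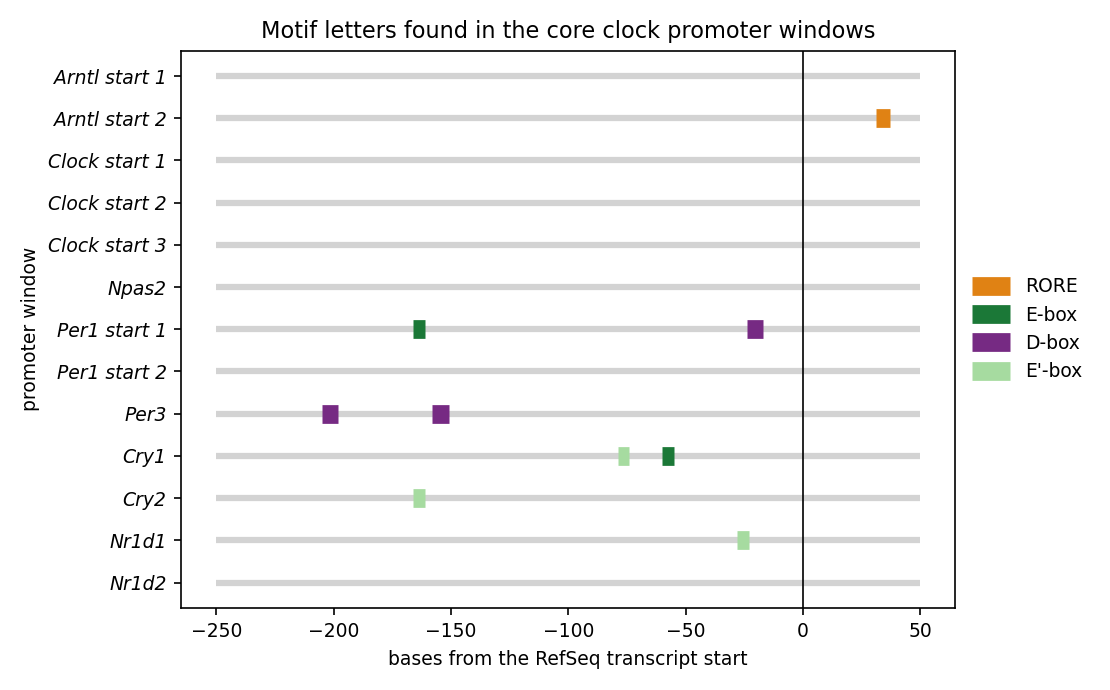
Motif letters found in the 13 RefSeq promoter windows of 9 core clock genes, plotted by distance in bases from the transcript start; grey bars are the windows and coloured blocks the motifs. Per3 carries a pair of D-boxes, Cry1 an E-box and an E'-box, and Arntl a RORE core after its second start.

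The members did not shift in one direction. Arntl, Npas2, Cry1, Cry2 and Nr1d2 lay below, and Per2 and Per3 above, every wild-type pool in both knockout pools, while Clock, Per1 and Nr1d1 overlapped between the groups. By ratio of mean FPKM, Per3 stood at 2.97 and Per2 at 1.69 times the wild-type level, against 0.356 for Arntl and 0.531 for Cry1. None of the 9 tested members passed limma at an adjusted p under 0.05, where 4.74% of all genes tested did. At an unadjusted p under 0.05 there were 5 of 9 (Arntl, Per2, Per3, Cry1 and Cry2), against 27.1% of all genes. The groups did not overlap for 6 of the 9, a share near the 61.5% found over all genes. Of these 2 lay higher in the knockout, where 31.6% of all genes did, and 4 lower, where 29.9% did. The median log2 fold change of the 9 was -0.20 and their median size without sign 0.44, beside 0.01 and 0.26 over all genes tested.

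The count test on recovered reads, limma voom, passed 2 members, Arntl (adjusted p = 0.0269) lower and Per3 (0.0466) higher, where 8.97% of all genes passed. With only protein-coding genes tested, the same pair passed limma at adjusted p of 0.0348 and 0.0448, where 9.98% of genes did.

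**Figure D2:**
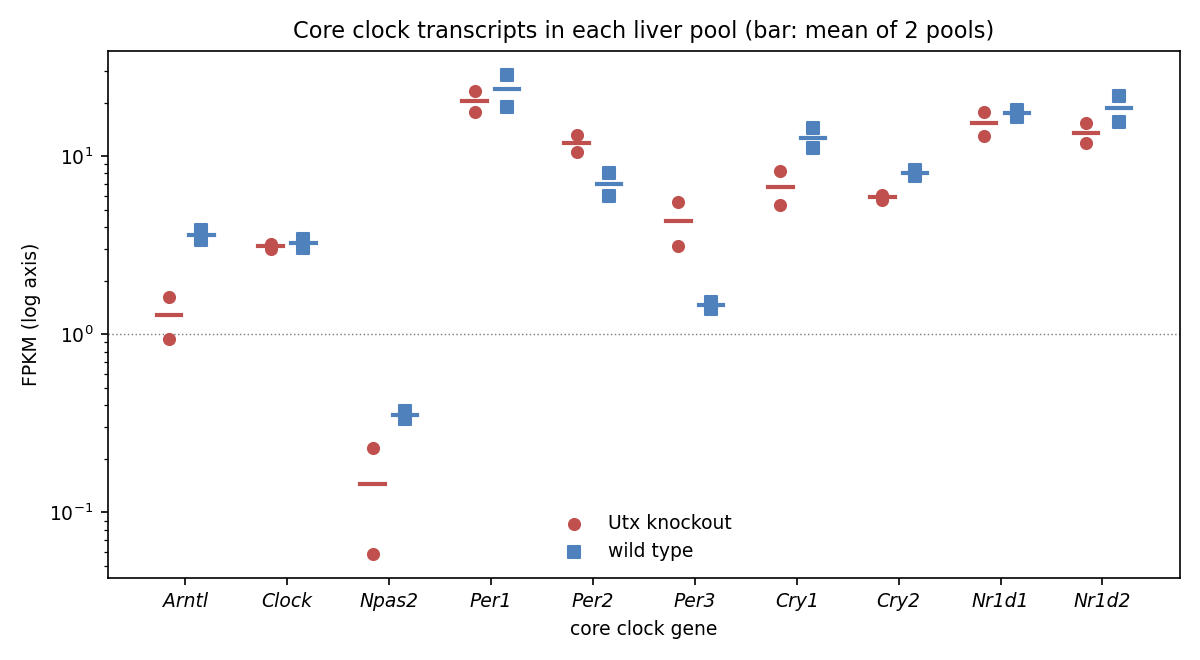
FPKM on a log axis of each core clock gene in the Utx knockout pools (circles, left) and the wild-type pools (squares, right); bars are the means of 2 pools and the dotted line is 1 FPKM, the minimum mean for testing. Arntl, Npas2 and Cry1 sit lower, and Per2 and Per3 higher, in both knockout pools, and Clock, Per1 and Nr1d1 overlap.

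Among the activators, Arntl showed the largest difference. Arntl (ENSMUSG00000055116, GRCm38 chromosome 7, 113207465 to 113314126, plus strand) was at 0.940 and 1.63 FPKM in knockout pools, against 3.39 and 3.83 FPKM in wild-type pools. These values rest on 126 and 210 reads in the knockout and 431 and 453 reads in the wild type. Both knockout pools lay under the wild-type range, and the knockout pools differed from each other by more than the wild-type pools did. On the log2 scale it stood at -1.23 relative to wild type (SE 0.24, 95% confidence interval -1.85 to -0.61), and its limma adjusted p of 0.0611 missed the threshold.

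Clock, which encodes the usual partner of BMAL1, was at 3.21 and 3.01 FPKM in knockout pools and at 3.42 and 3.07 FPKM in wild-type pools. The groups overlapped, and the log2 fold change was -0.05 (95% confidence interval -0.39 to 0.29, limma adjusted p = 0.824). Npas2, which encodes the alternative partner, was at 0.0585 and 0.231 FPKM in the knockout and at 0.333 and 0.372 FPKM in the wild type, on 5 and 19 reads against 27 and 28 reads. Its groups did not overlap, but at this depth it was not tested in the main fit, and with no filter on low values it did not pass (log2 fold change -0.42, limma adjusted p = 0.374).

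The Period genes went different ways. Per3 (ENSMUSG00000028957, chromosome 4, 151003652 to 151044665, minus strand), a Period gene that mice can largely do without for daily rhythms, was at 5.52 and 3.14 FPKM in knockout pools, against 1.53 and 1.39 FPKM in wild-type pools. The groups were well apart, and the first knockout pool stood above the second. Its log2 fold change came to 1.26 (SE 0.27, 95% confidence interval 0.54 to 1.98, limma adjusted p = 0.0749). With knockout replicate 1 left out it was 0.89 (limma adjusted p = 0.168), and with knockout replicate 2 left out 1.62 (limma adjusted p = 0.0479, where 1.97% of all genes passed). With wild-type replicate 1 or 2 left out the limma adjusted p was 0.162 or 0.171. Per2, a repressor that also binds nuclear receptors, was at 10.6 and 13.1 FPKM in the knockout, against 8.03 and 5.96 FPKM in the wild type. Its groups were apart by a log2 fold change of 0.73, with an SE of 0.19 and a limma adjusted p of 0.102.

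Per1, a repressor that is also induced by cAMP and by glucocorticoids, was at 17.7 and 23.3 FPKM in knockout pools and at 28.7 and 18.9 FPKM in wild-type pools. The wild-type pools enclosed the higher knockout pool, and the log2 fold change was -0.19 (95% confidence interval -0.86 to 0.47, limma adjusted p = 0.657). Per1 and Per2 stood in different proportions in the groups: Per1 was at 1.67 and 1.77 times the FPKM of Per2 within the knockout pools and at 3.57 and 3.17 times within the wild-type pools.

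The cryptochromes, which are the strongest repressors of CLOCK and BMAL1, were both lower in level in the knockout pools. Cry1 (ENSMUSG00000020038, chromosome 10, 85131700 to 85185064, minus strand) was at 5.29 and 8.21 FPKM in the knockout, against 14.3 and 11.1 FPKM in the wild type. Its groups were apart by a log2 fold change of -0.89, with an SE of 0.25 and a limma adjusted p of 0.111. Cry2 was at 6.08 and 5.70 FPKM in the knockout, against 7.73 and 8.403 FPKM in the wild type. Its pools were close within each group, and its log2 fold change was -0.42 (SE 0.11, limma adjusted p = 0.1004). The antisense-strand gene D930015M05Rik shares 295 exon bases with Cry2, 4.67% of its exons, and strand use is not stated, so reads there cannot be assigned.

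The REV-ERB genes, whose proteins repress Arntl, were far from the threshold. Nr1d1 was at 17.7 and 13.0 FPKM in knockout pools and at 16.6 and 18.3 FPKM in wild-type pools, and the first knockout pool lay inside the wild-type range. Its log2 fold change was -0.20 (95% confidence interval -0.66 to 0.27, limma adjusted p = 0.518). Nr1d2 was at 15.3 and 11.9 FPKM in the knockout, against 15.6 and 21.7 FPKM in the wild type. The highest knockout pool and the lowest wild-type pool nearly met, and the log2 fold change was -0.44 (95% confidence interval -1.005 to 0.13, limma adjusted p = 0.269). Nr1d1 shares 263 exon bases, 8.55% of its exons, with the thyroid hormone receptor gene Thra on the other strand, which was listed at 2.61 and 2.17 FPKM in the knockout and at 1.99 and 1.92 FPKM in the wild type.

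Ratios between genes within a pool do not depend on how the libraries were scaled. Per3 was at 5.87 and 1.93 times the FPKM of Arntl in the knockout pools and at 0.451 and 0.363 times in the wild-type pools, so the order of these genes was turned round in both knockout pools. Per2 was at 2.00 and 1.60 times the FPKM of Cry1 in the knockout and at 0.560 and 0.537 times in the wild type, again with the order turned round. Arntl was at 0.293 and 0.540 times the FPKM of Clock in the knockout pools and at 0.990 and 1.25 times in the wild-type pools. These pairs were picked with the data in view, so their ratios carry no test. Arntl was at 0.0532 and 0.125 times the FPKM of Nr1d1 in the knockout and at 0.204 and 0.2096 times in the wild type. Cry1 was at 0.870 and 1.44 times the FPKM of Cry2 in the knockout and at 1.86 and 1.32 times in the wild type, where the groups overlapped.

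**Figure D3:**
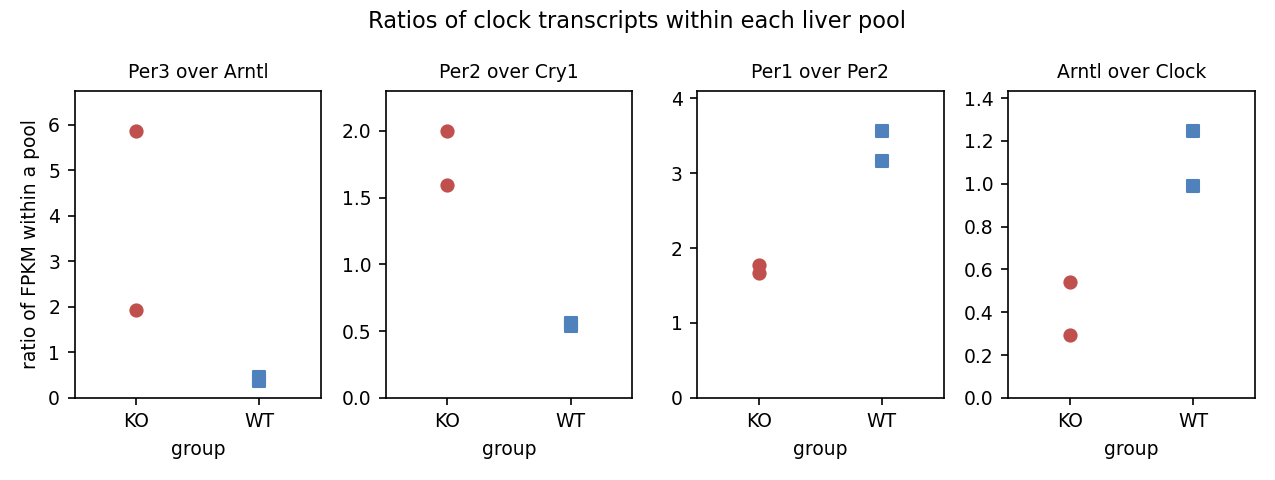
Ratios of FPKM between pairs of clock transcripts within each liver pool, knockout (circles) left of wild type (squares), each on an axis that starts at 0. Per3 exceeds Arntl, and Per2 exceeds Cry1, in both knockout pools and in neither wild-type pool.

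Averaged on the log2(FPKM + 0.5) scale, Arntl, Clock and Npas2 lay 2.85 and 2.52 below the Per, Cry and Nr1d genes in the knockout pools and 2.21 and 2.08 below them in the wild-type pools. Npas2 was too low to test yet weighs as much as Arntl in this average, and Clock had a log2 fold change of only -0.05. The mean of the Per, Cry and Nr1d genes itself was 3.38 and 3.33 in the knockout and 3.43 and 3.33 in the wild type, since members above and below the wild type offset each other.

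By mean level the order in the knockout was Per1, Nr1d1, Nr1d2, Per2, Cry1, Cry2, Per3, Clock, Arntl and Npas2. In the wild type it was Per1, Nr1d2, Nr1d1, Cry1, Cry2, Per2, Arntl, Clock, Per3 and Npas2. In the knockout the neighbours Nr1d1 and Nr1d2, Nr1d2 and Per2, Cry1 and Cry2, and Per3 and Clock overlapped over their pools, so they did not differ beyond their spread. In the wild type the neighbours Per1 and Nr1d2, Nr1d2 and Nr1d1, Cry2 and Per2, and Arntl and Clock overlapped. Per3 thus stood at rank 7 with a mean of 4.33 ± 1.68 FPKM in the knockout and at rank 9 with 1.46 ± 0.0966 FPKM in the wild type (SD, n = 2 pools each).

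The knockout pools differed from each other by more than the median of all genes in 7 of the 9 tested members, and the wild-type pools in 4. The median distance between the pools of a group on the log2(FPKM + 0.5) scale was 0.39 over the 9 members in the knockout and 0.15 in the wild type, beside 0.16 and 0.18 over all genes tested. Per3, Cry1 and Arntl had the largest distances in the knockout, of 0.73, 0.59 and 0.56, each larger than that of 90.0% or more of all genes. In the wild type Per1 had the largest, at 0.59. Knockout replicate 1 was the farther from the wild type in Arntl, Npas2, Cry1 and Per3, and knockout replicate 2 in Per2, Cry2 and Nr1d2.

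**Figure D4:**
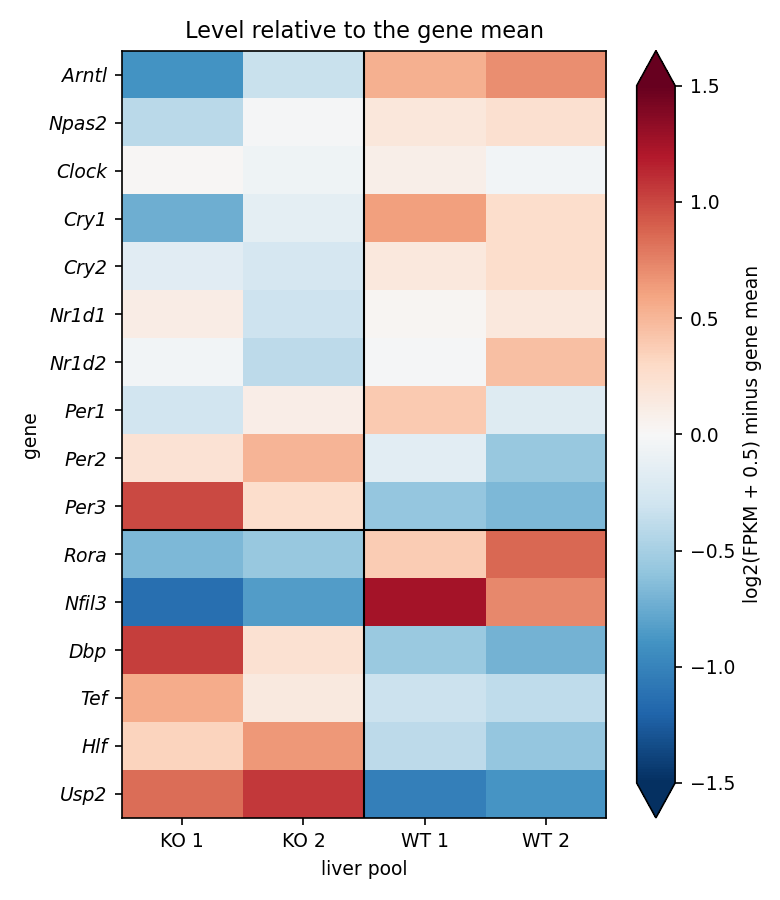
Level of each clock gene (above the line) and of regulators and outputs (below it) in every pool, as log2(FPKM + 0.5) minus the gene's mean over the 4 pools; red is above and blue below that mean. Arntl, Cry1, Rora and Nfil3 are blue, and Per2, Per3, Dbp, Tef, Hlf and Usp2 red, in both knockout pools.

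The regulators and outputs that close the loop were read from the same fit. Of 51 tested genes in 6 lists of ROR receptors, further repressors, output genes, kinases and phosphatases, ubiquitin enzymes and cofactors, 3 rose and 3 fell, beside the 4.74% called over all genes. Rora, which encodes a ROR receptor, fell to 3.40 and 3.68 FPKM in knockout pools, against 7.57 and 10.8 FPKM in wild-type pools (log2 fold change -1.24, SE 0.19, limma adjusted p = 0.0462). Rorb was too low to test.

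Of the factors that meet at D-boxes, the repressor fell and an activator rose. Nfil3, the D-box repressor, fell to 23.5 and 28.7 FPKM in knockout pools, against 123.5 and 85.9 FPKM in wild-type pools (log2 fold change -1.97, SE 0.22, limma adjusted p = 0.0315). Hlf, a D-box activator, rose to 10.01 and 12.6 FPKM in the knockout, against 5.87 and 5.08 FPKM in the wild type (log2 fold change 0.98, SE 0.16, limma adjusted p = 0.0482). Dbp was at 16.1 and 9.02 FPKM in the knockout and at 5.04 and 4.48 FPKM in the wild type, but did not pass (log2 fold change 1.26, limma adjusted p = 0.0810). Tef had a log2 fold change of 0.71 and did not pass either (limma adjusted p = 0.0853). Usp2, a deubiquitinase gene that cycles with the clock, rose to 6.50 and 7.68 FPKM in the knockout, against 1.42 and 1.61 FPKM in the wild type (log2 fold change 1.91, SE 0.14, limma adjusted p = 0.0258).

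Of the 9 output genes tested, 2 rose, 1 fell and 6 did not pass, where 4.74% of all genes were called. Their median log2 fold change was 0.71, beside 0.01 over all genes tested. They did not all go one way, with 5 higher and 2 lower without overlap, where 31.6% and 29.9% of all genes were. None of the 3 further repressors passed limma or limma voom. The 1 at an unadjusted limma p under 0.05, where 27.1% of all genes were, was Bhlhe40. Its level was 22.2 and 22.0 FPKM in the knockout and 29.2 and 30.5 FPKM in the wild type (limma adjusted p = 0.0839). Ciart had a log2 fold change of 0.37, and Timeless 0.43. Bhlhe41 was too low to test.

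Among enzymes that act on the stability of clock proteins, limma called 0 of 15 kinases and phosphatases and 1 of 7 ubiquitin enzymes. The share over all genes was 4.74%, and lists this short cannot be placed against it. For the kinases and phosphatases the median log2 fold change was -0.02, and Csnk1e, which encodes a PER kinase, was at 2.09 and 2.22 FPKM in the knockout and at 4.04 and 3.69 FPKM in the wild type (limma adjusted p = 0.0547). At an unadjusted limma p under 0.05 there were 3 of the 15 (Csnk1e, Csnk1d and Prkaa2), a share below the 27.1% of all genes. With limma voom Csnk1e passed. Of 7 ubiquitin enzymes, Siah2, a ligase gene for REV-ERB proteins, fell (log2 fold change -0.72, SE 0.11, limma adjusted p = 0.0466), and the list's median was -0.05. Of 16 cofactors, Nampt, the rate-limiting enzyme of NAD salvage and itself a clock output, rose to 21.8 and 24.2 FPKM in the knockout, against 14.4 and 12.9 FPKM in the wild type (log2 fold change 0.73, SE 0.12, limma adjusted p = 0.0494). Ppargc1a, a coactivator of the ROR receptors, was at 1.97 and 2.16 FPKM in the knockout and at 3.29 and 2.77 FPKM in the wild type (limma adjusted p = 0.144).

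These calls lay close to the threshold. Counting also the lists of cAMP-responsive and glucocorticoid-responsive genes, 8 of 71 genes were called, or 11.3%, beside 4.74% of all genes, and 3 when each library was rescaled to its listed reads. Without wild-type replicate 1, wild-type replicate 2 or knockout replicate 1 none of them was called by limma (30, 21 and 26 had an unadjusted p under 0.05, beside 21.5%, 22.4% and 17.1% of all genes), and without knockout replicate 2 the count was 6, where 1.97% of all genes passed.

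**Figure D5:**
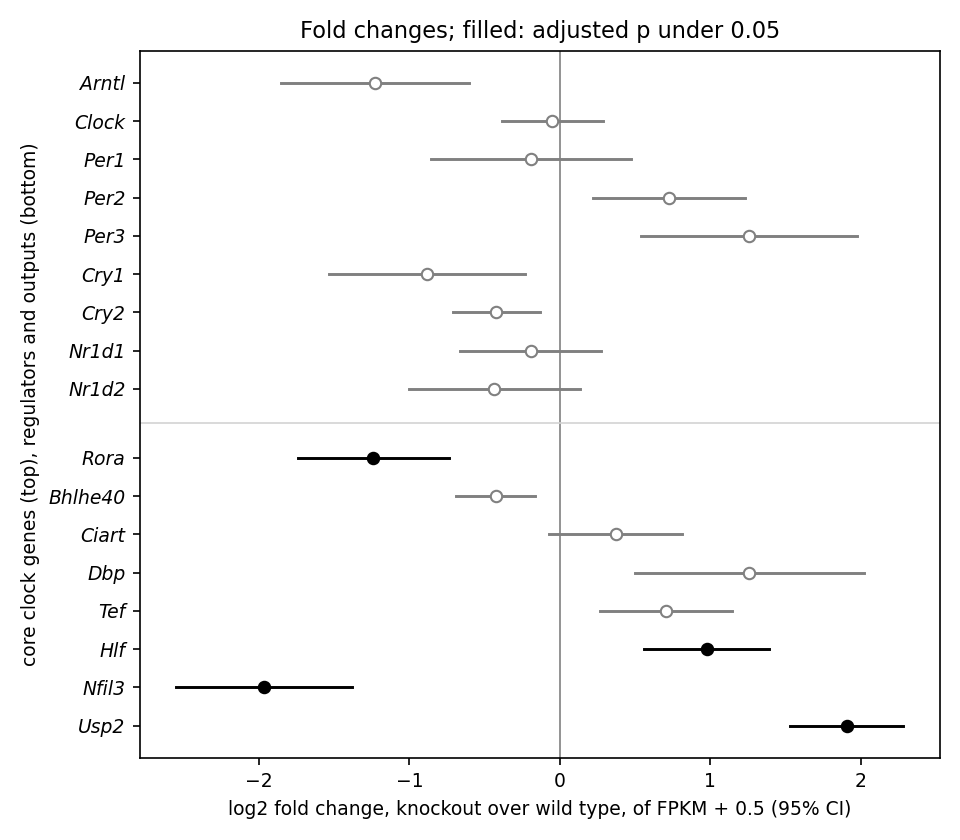
Log2 fold change, knockout over wild type, with its 95% confidence interval from limma, for the 9 tested core clock genes (top) and for regulators and outputs (bottom); filled points have an adjusted p under 0.05. Usp2 and Hlf lie to the right of 0, Nfil3 and Rora to the left, and no core clock gene is filled.

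The genes whose pattern over the 4 pools was nearest to that of Arntl, the member with the smallest p, were sought among 10156 tested protein-coding genes outside the set. By Euclidean distance between centred log2(FPKM + 0.5) values they were Jmjd1c (0.0753), which encodes a jumonji-domain protein, Mtfr2 (0.0756) and Jund (0.120), which encodes an AP-1 subunit. Jmjd1c was at 1.19 and 2.12 FPKM in knockout pools, against 4.35 and 4.63 FPKM in wild-type pools.

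Other features of the pools moved with these differences. All 9 neutrophil markers that could be tested lay lower in both knockout pools, where 29.9% of all genes tested lay lower without overlap. Of the 9, 4 were called, where 4.74% of all genes were. Mmp8, Mmp9, Cxcr2 and Ngp had knockout means under 1 FPKM and reached the minimum mean through the wild-type pools. Their direction thus follows in part from the filter. The 6 markers left were too low to test. Of those, Camp lay higher without overlap, at 0.518 and 1.00 FPKM in the knockout against 0.156 and 0 FPKM in the wild type. Elane and Trem1 lay lower without overlap, and Ltf, Ly6g and Mpo overlapped. The summed level of the 15 listed was 41.1 and 37.5 FPKM in the knockout, against 122 and 186 FPKM in the wild type, and none was at 0 in every pool. In bulk liver, fewer cells of a type and less RNA per cell cannot be told apart. Reads of the mitochondrial ribosomal RNAs made up 0.108% and 0.158% of the knockout libraries and 0.244% and 0.251% of the wild-type libraries. Of the summed levels of 13 Kupffer cell, 10 sinusoidal endothelial, 10 stellate and 7 cholangiocyte markers, the Kupffer and stellate sums overlapped between the groups. Of the 13 Kupffer markers 2 lay lower and 0 higher without overlap, where 29.9% and 31.6% of all genes tested did. Among them Cd163 was called lower (log2 fold change -0.80, limma adjusted p = 0.0467), where 3.14% of all genes were. Of the 8 stellate markers tested 4 lay lower and 2 higher without overlap, and none passed limma or limma voom. At an unadjusted limma p under 0.05 there were 3 of the 8, where 27.1% of all genes were. The endothelial sum was 78.9 and 80.1 FPKM in the knockout and 98.9 and 96.2 FPKM in the wild type. Without Lyve1, the marker with the largest difference, it was 66.7 and 73.4 FPKM in the knockout and 80.4 and 71.8 FPKM in the wild type, and overlapped. Of the 10 endothelial markers 5 lay lower and 1, Dpp4, higher without overlap, where 29.9% and 31.6% of all genes tested did. The other 4 overlapped. None of the 10 passed limma or limma voom, and 5 had an unadjusted limma p under 0.05, where 27.1% of all genes did. The cholangiocyte sum was 42.9 and 20.9 FPKM in the knockout and 266 and 104 FPKM in the wild type, or 9.23 and 7.96 FPKM in the knockout and 19.8 and 14.4 FPKM in the wild type without Spp1. Of the 4 cholangiocyte markers tested 2 lay lower and 1 higher without overlap, beside the same 29.9% and 31.6% of all genes. Among them 1, Sox9, was called lower, where 3.14% of all genes were. The part of these features in the clock transcripts was not tested.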

How the data were processed

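Liver RNA of 2 Utx knockout and 2 wild-type pools was poly(A)-selected and reverse transcribed with random hexamers, per the labels' protocols. The authors deposited FPKM per gene with gene lengths and coordinates, per the file headers. Per the submitters' processing notes, the aligner was HISAT2 (version 2.0.5) and the genome mm10, in its GRCm38.p6 form. How reads were counted, on which annotation and with which strand setting, is not stated in what was used here. FPKM times gene length was a whole multiple of 1 step per library in 100% of values above 0, within 0.01 read.

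The tested scale was log2(FPKM + 0.5), which understates the change of low genes, and the tool limma 3.58.1 (eBayes with trend) in R 4.3.3. Requiring a mean of 1 FPKM left 11900 genes. Two-sided p-values were adjusted over all of these by Benjamini-Hochberg, threshold 0.05. The labels do not say that the pools come from separate litters. The p-values rest on the spread between pools, which eBayes moderates over all genes, and not on that between single mice. The members, lists and rules were chosen with earlier results of these data known. Named were all members, Kdm6a, called list genes, up to 3 further genes per list, a few fixed genes, and the 3 nearest in pattern to the leading member. A gene of the pathway lists is not reported here and is left out of their counts. Alternatives were the pseudocount, filter, scaling, trend, limma voom with TMM scaling, protein-coding genes alone, a replicate block and leaving out each library. Rescaling to the listed reads and a crossed block were chosen after seeing the data. Exon overlaps came from GENCODE release M21. Figures used matplotlib 3.10.9.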

Additional observations from a re-analysis of the deposited data

How the results depend on the processing

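Of 598 repeats over 38 named genes, 509 kept direction and side of the threshold, 57 lost a call, 28 gained one and 4 turned direction; the cause was not tested. All genes called, 564, became 0 with no filter (4388 at an unadjusted limma p under 0.05; 26643 genes were then tested), 280 without trend, 1067 with limma voom, 1014 with protein-coding genes alone, and 0 to 234 with a library left out, where the lone pool is assumed to vary like the other group. Members called, 0, became 2 with limma voom, 2 with protein-coding genes alone and 0 to 1 with a library left out. Pathway list genes called, 8, became 0 with no filter, 2 without trend, 14 with limma voom, 14 with protein-coding genes alone, 3 when rescaled to the listed reads, and 0 to 6 with a library left out. Clock turned to a log2 fold change of 0.0041 when rescaled. With a library left out, Clock ranged between -0.119 and 0.0177, Per1 between -0.49 and 0.10 and Nr1d1 between -0.409 and 0.0189. Arntl stayed lower (-1.51 to -0.95), Per3 higher (0.89 to 1.62), Per2 higher (0.53 to 0.93) and Cry1 lower (-1.18 to -0.59) with any library left out, and the call of Usp2 was lost in 4 of 15 alternatives, and of 16 alternatives that of Nfil3 in 5, Rora in 7, Hlf, Nampt, Crem and Dusp1 in 8 each and Siah2 in 9. Nothing in the labels pairs the replicate numbers, and same-numbered pools deviated from their group means with a correlation of -0.14 across genes. The replicate block called 310 genes, 0 members and 7 pathway list genes. With crossed numbers the block called 552 genes, 0 members and 7 pathway list genes. Few reads limit Npas2.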

Other observations

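Genes that respond to cAMP and to glucocorticoids, signals that also act on Per1, held 1 call in each list, both lower. Over all genes tested, 4.74% were called. Of 13 tested glucocorticoid-responsive genes, Dusp1, a MAP kinase phosphatase, fell to 20.2 and 39.6 FPKM in knockout pools, against 115.6 and 166 FPKM in wild-type pools (log2 fold change -2.27, SE 0.37, limma adjusted p = 0.0498), and the other 12 did not pass. Their median log2 fold change was -0.70, beside 0.01 over all genes tested, and 10 of the 13 lay lower without overlap, where 29.9% of all genes did. None lay higher without overlap, where 31.6% did. At an unadjusted limma p under 0.05 there were 7 of the 13, where 27.1% of all genes were. Limma voom passed Dusp1, Fkbp5 and Pdk4, where 8.97% of all genes passed. Fkbp5, a chaperone cofactor of the glucocorticoid receptor, was at 17.1 and 18.5 FPKM in the knockout and at 27.1 and 31.3 FPKM in the wild type (limma adjusted p = 0.0545). Pdk4 was at 16.0 and 35.6 FPKM in the knockout, against 93.3 and 87.8 FPKM in the wild type (limma adjusted p = 0.0674). Sgk1 had a log2 fold change of -1.21 (limma adjusted p = 0.0973). Of 9 tested cAMP-responsive genes, Crem fell to 7.74 and 9.38 FPKM in the knockout, against 16.8 and 15.8 FPKM in the wild type (log2 fold change -0.90, limma adjusted p = 0.0429), and the other 8 did not pass. The list's median was -0.46, with 4 of the 9 lower and 1 higher without overlap, where 29.9% and 31.6% of all genes were. Fos, on that list, was at 4.29 and 14.8 FPKM in the knockout, against 62.1 and 105.5 FPKM in the wild type. It did not pass limma (log2 fold change -3.25, limma adjusted p = 0.0600). Limma voom passed Crem and Fos, where 8.97% of all genes passed. At an unadjusted limma p under 0.05 there were 4 of the 9, where 27.1% of all genes were. Pck1, a gluconeogenic enzyme on that list, was at 289 and 358 FPKM in the knockout and at 217 and 240.4 FPKM in the wild type (limma adjusted p = 0.150). Per1 itself overlapped between the groups.

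Alas1, the rate-limiting enzyme of heme synthesis and a clock output, was at 142 and 208 FPKM in knockout pools and at 76.6 and 68.1 FPKM in wild-type pools (log2 fold change 1.25, limma adjusted p = 0.0540). Ppp1ca, a phosphatase gene singled out after its values were seen, was at 1.75 and 8.502 FPKM in the knockout and at 19.4 and 2.17 FPKM in the wild type, so its pools differed more within a group than between the groups.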
